A study of Homo sapiens with 2 samples.

Results

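The 10 genes examined form a short stretch of cytokine signalling: the ligand gene IL6, the receptor genes IL6R, IL6ST, IL10RA and IL21R, the kinase genes JAK1 and JAK2, the transcription factor gene STAT3, and the feedback inhibitor genes SOCS1 and SOCS3. They were taken by gene symbol from a table of 18930 genes, of which 18267 held a read count, and all 10 were found with reads in both libraries. RNA sequencing of total RNA was available for 2 libraries, which carry the cell line label A375, a melanoma line of human origin. The cells are described as grown in DMEM with serum, whereas the paper names RPMI medium for its tumour cells and DMEM for another line. One library carries the group label DR, which the study uses for cells selected for resistance to dacarbazine, a drug that alkylates DNA. The other carries the label WT, the wild-type control, yet the labels give 105 days of "DITC" (spelled so) for both groups. There was 1 library per group, so no difference given here has a replicate check. Every interval covers the counting of reads alone and treats each read as an independent draw. No molecular identifiers are stated, so repeated reads of the same molecule cannot be told apart and the intervals may be too narrow.

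Cytokines of the interleukin 6 family bind a receptor chain of their own and then the shared chain gp130. The JAK kinases held by the receptor chains phosphorylate STAT3, which enters the nucleus and switches on genes that include those of its own inhibitors, the SOCS proteins. In plasma cells and plasma cell tumours this pathway is known as a growth and survival signal, and in melanoma interleukin 6 is known both as a growth inhibitor of early lesions and as a product of advanced ones.

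The identity of the libraries bears on every value below. The 2 count columns were assigned by the sample descriptions, which differ in a single punctuation mark and do not say which library is the wild type, so the libraries are named by their labels and each direction rests on those labels. Marker genes went against the melanoma label. Of 8 melanocytic genes, 6 had a count and only MITF lay above the median CPM of all genes in either library (divided by gene length it lay below, at percentiles 40.8 and 41.5), with a median over the list of 1.22 CPM (read counts scaled to a common library size) in the library labelled DR against 1.42 CPM in that labelled WT. All 12 plasma cell genes lay above the median CPM of all genes in both libraries, as they did per length, with list medians of 385 and 254 CPM. Of the genes for other cell types, 0 of 4 B cell genes, 0 of 6 T and NK cell genes, 1 of 6 myeloid genes and 0 of 4 stromal genes with a count lay above that median in either library. The B cell genes summed to 5.44 CPM in the library labelled DR against 1.58 CPM in that labelled WT, and the stromal genes to 14.1 and 3.19 CPM, and the part of such cells in the differences below was not tested. In bulk RNA, fewer cells of a type and less RNA per cell cannot be told apart. The libraries held 54878348 (DR) and 35294662 (WT) reads, and 3 reads, the floor below which no level is read, correspond to 0.0539 and 0.0862 CPM.

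The start regions of the 10 genes were read for known regulatory letters, since SOCS1 and SOCS3 are STAT targets and IL6 is a target of NF-kB. RefSeq (GRCh38.p14) gave 16 windows for the 10 genes, each of 300 bases from 250 before to 50 after a gene start. The STAT motif TTCNNNGAA, searched on both strands like the others, occurred in 0 of the 16 windows and in 7.66% of 35116 windows over 27305 genes, which says only that these letters are not in these windows. The interferon regulatory factor motif GAAANNGAAA, held by 3.57% of all windows, occurred in SOCS1 alone among the 10 genes. The NF-kB motif GGGANTTTCC, held by 0.558% of all windows, occurred in IL6 alone, and the C/EBP motif TTGCNNAA, held by 10.5%, in IL6 and IL10RA. The 250 bases before the start are shown for SOCS1 and IL6, the pair of genes with the highest ratios between the libraries, with the interferon regulatory factor match of SOCS1 and the C/EBP and NF-kB matches of IL6 in capitals. The SOCS1 stretch is chr16:11256205-11256454 on the minus strand, and its match begins 113 bases before the start. The IL6 stretch is chr7:22726950-22727199 on the plus strand, and its C/EBP and NF-kB matches begin 155 and 73 bases before the start. Both are written 5′ to 3′ on the strand of the gene.
SOCS1: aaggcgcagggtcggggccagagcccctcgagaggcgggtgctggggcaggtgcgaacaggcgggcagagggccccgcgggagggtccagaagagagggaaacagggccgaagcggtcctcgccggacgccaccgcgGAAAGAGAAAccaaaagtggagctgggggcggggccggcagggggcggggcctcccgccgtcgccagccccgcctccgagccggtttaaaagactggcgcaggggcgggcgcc
IL6: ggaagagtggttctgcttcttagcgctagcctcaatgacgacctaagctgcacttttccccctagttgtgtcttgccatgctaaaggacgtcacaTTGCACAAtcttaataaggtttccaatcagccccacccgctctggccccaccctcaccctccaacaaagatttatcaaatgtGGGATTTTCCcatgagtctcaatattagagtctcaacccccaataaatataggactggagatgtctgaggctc
The 300-base SOCS1 window was rich in G and C (74.0%) and held 3 matches to the GC box GGGCGG, a motif found in 45% of all windows, whereas the IL6 window (49.3% G and C) held 0. A GC box also occurred in windows of IL6ST, JAK1, JAK2 and STAT3. A match is a description of the letters, and no binding was measured in these data.

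To compare genes with each other, CPM was divided by the gene length the table gives, in kilobases. On this scale IL6R, IL6ST, JAK1, STAT3 and IL10RA exceeded, in both libraries, the median over the genes tested (6.45 CPM per kb in DR, 6.42 in WT), and IL21R, JAK2, SOCS1, SOCS3 and IL6 lay below it in both. By CPM not divided by length IL21R changed sides in the library labelled DR, at percentile 54.6, and stayed below the median in that labelled WT, at 48.4. In the library labelled DR the level per kb ran from IL6R at 35.2 through IL6ST at 34.6, JAK1 at 34.0, STAT3 at 23.0, IL10RA at 17.4, IL21R at 5.23, JAK2 at 2.67, SOCS1 at 2.53 and SOCS3 at 1.72 to IL6 at 0.211 CPM per kb. Neighbours in this order that did not differ beyond read counting were IL6R and IL6ST, IL6ST and JAK1, and JAK2 and SOCS1. In the library labelled WT the order was IL6ST at 35.4, IL6R at 34.7, JAK1 at 28.4, STAT3 at 23.6, IL10RA at 18.8, IL21R at 3.78, JAK2 at 1.88, SOCS3 at 1.20, SOCS1 at 1.09 and IL6 at 0.0930 CPM per kb. There the pairs IL6ST and IL6R, and SOCS3 and SOCS1, did not differ beyond read counting.

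**Figure D1:**
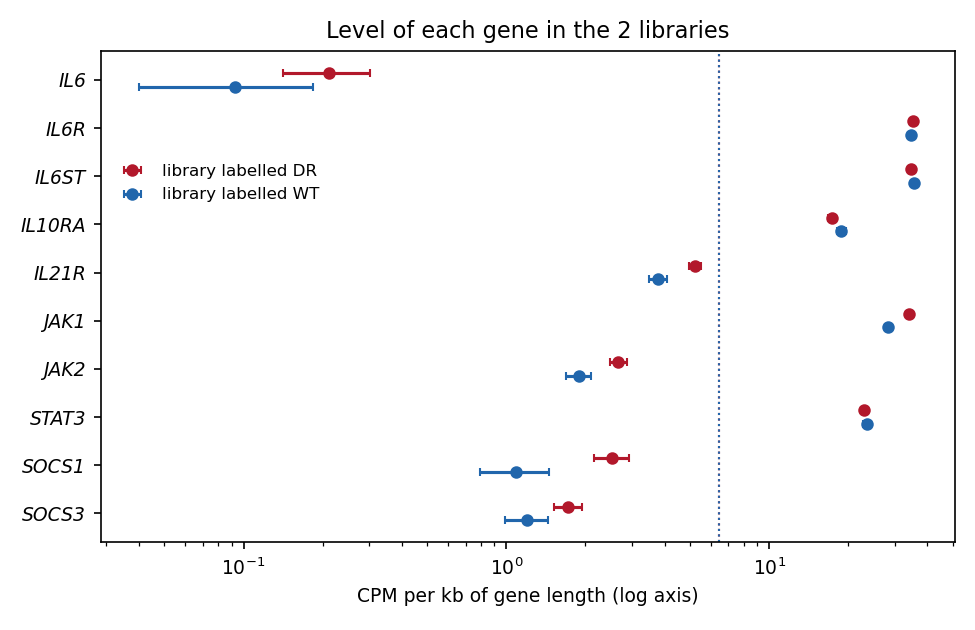
Level of each of the 10 genes in CPM per kb of gene length (log axis) in the library labelled DR (red) and the library labelled WT (blue), 1 library each. Bars are 95% exact Poisson intervals for read counting, and the dotted lines, which nearly coincide, mark the medians of all genes tested in the 2 libraries (6.45 and 6.42). The reader should see 5 genes right of the lines and 5 left of them in both libraries, with IL6 lowest at 0.211 and 0.0930.

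Between the libraries, 0 of the 10 genes passed a 2-fold difference upwards or downwards, measured as the difference of log2(CPM + 0.5) that is used for all fold changes. Over the 16210 genes with at least 10 reads, 7.42% were at least 2-fold higher and 4.19% at least 2-fold lower in the library labelled DR. The 10 log2 fold changes (DR minus WT) ran from -0.12 for IL10RA to 0.97 for SOCS1 with a median of 0.36, and 7 of 10 were above 0. Over all genes tested the median log2 fold change was 0.01 and 50.6% were above 0. The 95% interval of the CPM ratio (exact Clopper-Pearson) lay above 1 for 6 of the 10 genes and below 1 for 1 gene, while over all genes tested 35.4% lay above and 34.9% below, so that an interval away from 1 is common between these 2 libraries.

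**Figure D2:**
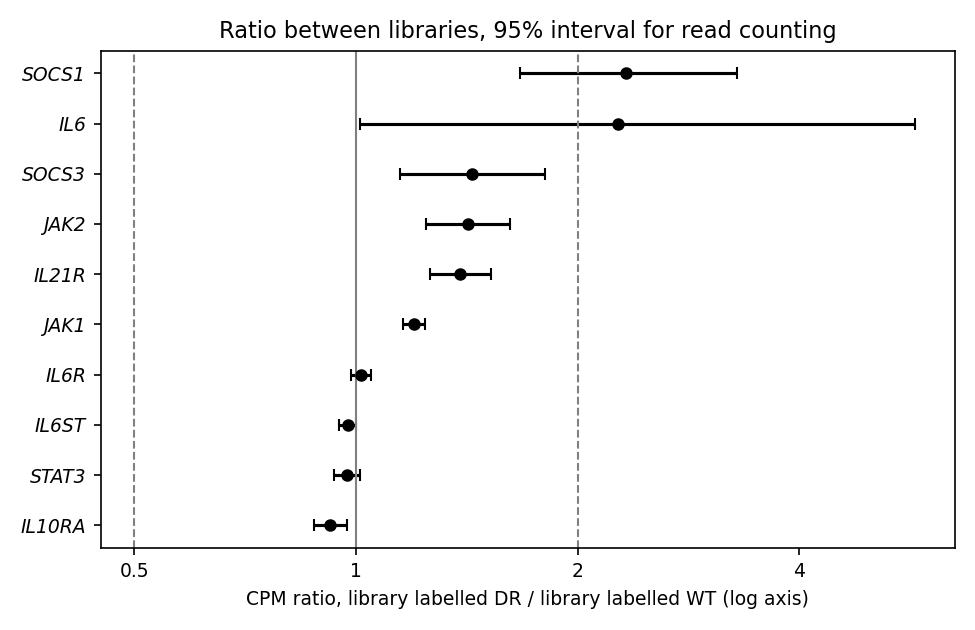
Ratio of CPM in the library labelled DR to CPM in the library labelled WT for each of the 10 genes (log axis), with 95% Clopper-Pearson intervals for read counting and dashed lines at 2-fold. The points run from 0.922 for IL10RA to 2.32 for SOCS1, and the intervals of SOCS1 and IL6 alone hold 2.

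IL6 encodes the ligand itself, a cytokine secreted by stromal, myeloid and some tumour cells. It had 29 reads in the library labelled DR against 8 in that labelled WT, or 0.521 and 0.230 CPM, both above the floor of 3 reads. The CPM ratio was 2.27 (95% interval 1.01 to 5.74) and the log2 fold change 0.48, since the pseudocount of 0.5 CPM is as large as the levels compared. IL6 was therefore a gene with few reads in both libraries, at percentiles 11.1 (DR) and 7.5 (WT) of the genes tested by level per kb, and its ratio is loosely bounded. An antisense gene, IL6-AS1, overlaps it in RefSeq, and whether counting used strand is not stated.

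IL6R, the receptor chain that binds interleukin 6, and IL6ST, which encodes gp130, were the receptor genes with the highest levels per kb of the 10. IL6R had 10983 and 6757 reads, or 197 CPM in the library labelled DR against 194 CPM in that labelled WT. Its CPM ratio was 1.02 (0.986 to 1.05). IL6ST had 14216 and 9116 reads, or 255 and 262 CPM, and a ratio of 0.975 (0.949 to 1.001). For both receptor chains the levels in the libraries lay within a few percent of each other. The log2 fold change of IL6ST was -0.04 and turned to 0.0042 when library totals replaced the TMM scaling, so no direction is given for it. Within a library, the per-length ratio of IL6R to IL6ST was 1.02 (0.994 to 1.04) in DR and 0.978 (0.948 to 1.01) in WT, so the ligand-binding chain and the shared chain were read at nearly equal levels in both. IL6R-AS1 and PSMD8P1 overlap IL6R in RefSeq, and no gene overlaps IL6ST.

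The partner chains of gp130 for the other cytokines of the family differed from each other. LIFR, the receptor for leukaemia inhibitory factor, had 61 reads in the library labelled DR against 1009 in that labelled WT, or 1.10 and 29.0 CPM, and a log2 fold change of -4.21. Per length, IL6ST stood at 306 times (238 to 400) the level of LIFR in DR and at 11.9 times (11.1 to 12.7) in WT. OSMR, the oncostatin M receptor, was low in both libraries, with 55 and 39 reads and a ratio of 0.882 (0.574 to 1.36). IL11RA, the interleukin 11 receptor, had 264 and 94 reads and a ratio of 1.76 (1.38 to 2.25), and IL27RA, a chain of the interleukin 27 receptor, had 1949 and 1078 reads and a ratio of 1.13 (1.05 to 1.22). CNTFR was at the floor of 3 reads in both. Of these chains LIFR alone passed 2-fold, in the lower direction.

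IL10RA encodes the ligand-binding chain for interleukin 10, a cytokine that also signals through JAK1 and STAT3. It had 3546 reads in the library labelled DR against 2403 in that labelled WT, or 63.7 and 69.1 CPM, and a ratio of 0.922 (0.876 to 0.972). It was the single gene of the 10 whose interval lay below 1. IL10RB, the second chain of the same receptor, stood at 51.5 and 29.4 CPM with a log2 fold change of 0.80. The per-length ratio of IL10RA to IL10RB was 0.662 (0.630 to 0.696) in DR and 1.26 (1.17 to 1.35) in WT, so this ratio differed between the libraries beyond read counting. By CPM not divided by length IL10RA stood above IL10RB in both libraries, so their order rests on the gene lengths used.

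IL21R encodes the receptor chain for interleukin 21, a T cell cytokine that acts on B lineage and NK cells. It had 1393 reads in DR and 629 in WT, or 25.02 and 18.08 CPM, and its ratio was 1.38 (1.26 to 1.52) with a log2 fold change of 0.46. Its partner is IL2RG, the common gamma chain shared with the interleukin 2 receptor and others. IL2RG had 7718 reads in DR and 408 in WT, or 139 and 11.7 CPM, a ratio of 11.8 (10.7 to 13.1). Per length, IL2RG stood at 17.0 times (16.04 to 17.99) the level of IL21R in DR and at 1.99 times (1.75 to 2.26) in WT. Of the interleukin 21 receptor pair, the common chain thus differed by far more between the libraries than the ligand-specific chain. IL21R-AS1 and LOC124903668 overlap IL21R in RefSeq.

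JAK1 and JAK2 encode kinases bound to gp130 and to many other cytokine receptors. JAK1 had 9461 and 4936 reads, or 170 CPM in DR and 142 CPM in WT, a ratio of 1.20 (1.16 to 1.24) and a log2 fold change of 0.26. JAK2 had 753 and 332 reads, or 13.5 and 9.54 CPM, a ratio of 1.42 (1.24 to 1.62) and a log2 fold change of 0.48. Both kinase genes were higher in the library labelled DR beyond read counting and below 2-fold. Per length, JAK1 stood at 12.7 times (11.8 to 13.7) the level of JAK2 in DR and 15.1 times (13.5 to 16.9) in WT, so JAK1 was the more abundant transcript in both. In RefSeq 7 genes overlap JAK1 and 17 overlap JAK2, of which RAVER2 (JAK1) and INSL6 (JAK2) alone are also listed in the table.

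The family has 2 further kinases. TYK2, which serves interferon and interleukin 10 receptors, stood at 144 CPM in DR and 152 CPM in WT with a log2 fold change of -0.08. JAK3, the kinase that pairs with the common gamma chain, stood at 25.4 and 10.8 CPM, a ratio of 2.35 (2.10 to 2.64) and a log2 fold change of 1.20, the single kinase gene past 2-fold. JAK3 and IL2RG, partners in the receptor complex, were thus both higher in the library labelled DR. Per length, JAK1 lay below TYK2 in both libraries, with ratios of 0.898 (0.872 to 0.925) in DR and 0.708 (0.681 to 0.736) in WT.

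STAT3 encodes the transcription factor that carries the gp130 signal. It had 5747 reads in DR and 3693 in WT, or 103 and 106 CPM, with a ratio of 0.973 (0.933 to 1.01). Its log2 fold change of -0.04 became 0.0012 with library totals, so no direction is given. STAT3 was as level between the libraries as the 2 chains of its receptor, and no gene overlaps it in RefSeq. Among the other STAT genes, those described had log2 fold changes of 0.68 for STAT2, 0.58 for STAT5A, 0.10 for STAT5B and 0.04 for STAT6. STAT4, best known in T and NK cells, stood at 12.3 CPM in DR and 4.86 CPM in WT with a log2 fold change of 1.26, the single STAT gene past 2-fold.

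SOCS1 and SOCS3 encode inhibitors of JAK activity that STAT proteins induce, SOCS3 through gp130 itself and SOCS1 through the kinases. SOCS1 had 171 reads in the library labelled DR against 46 in that labelled WT, or 3.07 and 1.32 CPM. Its ratio of 2.32 (1.67 to 3.29) was the highest of the 10, and its log2 fold change of 0.97 lay just under the 2-fold line, at percentile 92.2 of all genes tested. With library totals in place of TMM the same gene was at 1.0037, just past the line, and with a pseudocount of 5 CPM at 0.35, so the side of the line on which it falls is not settled by these reads. SOCS3 had 262 and 114 reads, or 4.71 and 3.28 CPM, a ratio of 1.44 (1.15 to 1.81) and a log2 fold change of 0.46. Both inhibitor genes were higher in the library labelled DR beyond read counting, at low levels in both libraries.

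The per-length ratio of factor to inhibitor differed between the libraries. It comes from the same reads and, with STAT3 nearly level, restates the SOCS1 and SOCS3 ratios given above. Per length, STAT3 stood at 9.09 times (7.80 to 10.6) the level of SOCS1 in DR and at 21.7 times (16.2 to 29.7) in WT, 2 intervals that do not overlap. Against SOCS3 the same ratio was 13.4 (11.8 to 15.2) in DR and 19.7 (16.4 to 24.0) in WT. SOCS1 stood at 1.47 times (1.20 to 1.79) the level of SOCS3 in DR and at 0.908 times (0.630 to 1.29) in WT, with overlapping intervals. STAT3 itself had a ratio of 0.973 between the libraries. In RefSeq 1 gene overlaps each inhibitor gene.

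**Figure D3:**
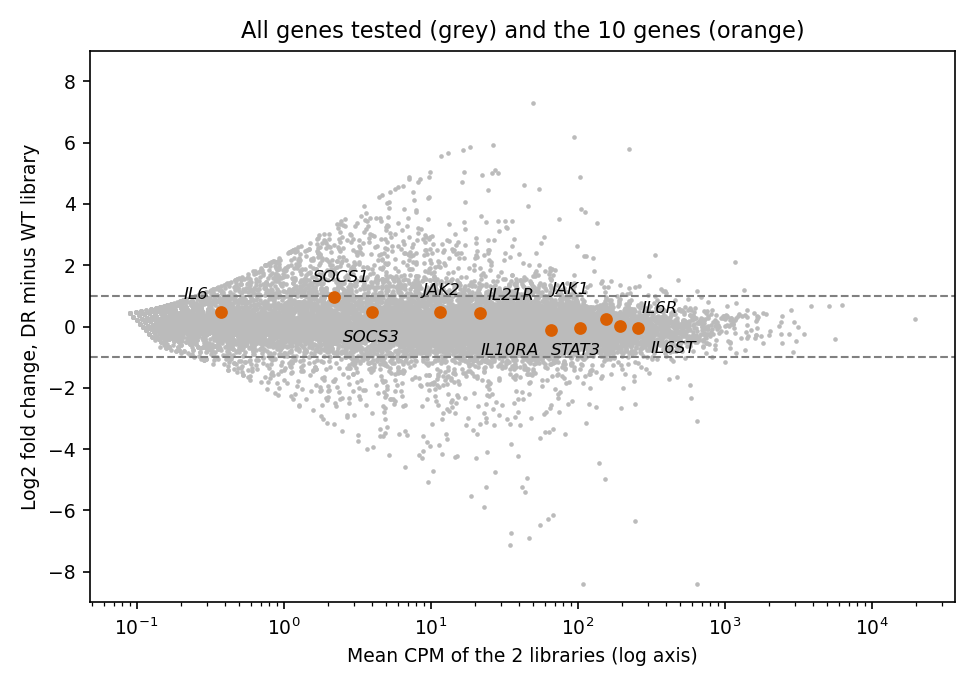
Log2 fold change (DR minus WT, of log2(CPM + 0.5)) against mean CPM (log axis) for the 16210 genes tested (grey) and the 10 genes (orange), with dashed lines at 2-fold. All 10 points lie between the lines, SOCS1 closest to one of them at 0.97, and the IL6R, IL6ST and STAT3 points sit at high mean CPM within 0.04 of 0.

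Lists of the wider pathway, 97 tested genes in all, gave 6 genes at least 2-fold higher and 6 at least 2-fold lower in the library labelled DR, or 6.19% each way beside 7.42% and 4.19% of all genes tested, so the lists together lay near the background. Of the 12 tested receptors of the IL6, IL10 and IL21 groups, 2 were higher, 1 was lower and 9 were neither, with a median log2 fold change of 0.10. Of 4 kinases 1 was higher, and of 7 STAT genes 1 was higher. Of 17 inhibitors, which besides the SOCS genes include CISH, the PIAS genes and phosphatases, 0 passed the 2-fold line in either direction, and their median was 0.02. SOCS1 had the highest log2 fold change of the list, while SOCS2 and SOCS6 both stood at -0.86.

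Of 10 tested ligands, 1 was higher and 2 were lower, beside 7.42% and 4.19% of all genes tested. All were at low levels and are named here after their values were seen: EBI3, a subunit of interleukin 27, at 1.01, CNTF at -1.36 and CLCF1 at -1.19. Of 20 other receptors that use JAK kinases, IL13RA1, a chain of the interleukin 13 receptor, was higher at 1.15, and IL9R, named after its value was seen, was lower at -1.24. IL22RA1, likewise named afterwards, was the second higher gene of the IL6, IL10 and IL21 receptor list at 1.71. With a pseudocount of 5 CPM the calls of these 6 genes, of JAK3 and of STAT4 were lost, while those of IL2RG, LIFR, FOS and SHC1 held.

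Of 21 tested STAT3 target genes, 0 were at least 2-fold higher and 1 was lower, beside 7.42% and 4.19% of all genes tested. The list median was 0.08. The lower gene was FOS, an immediate early transcription factor, at 9.85 CPM in the library labelled DR against 110 CPM in that labelled WT, a log2 fold change of -3.42. Among the targets that serve cell survival, picked here by known function, log2 fold changes were -0.01 for MCL1, 0.55 for BCL2L1, -0.08 for BIRC5, 0.82 for PIM1, 0.23 for PIM2 and 0.06 for PIM3. PRDM1, which encodes the plasma cell factor Blimp-1, was at 402 and 284 CPM with 0.50. Of the 7 genes for receptor shedding and adaptors, SHC1, an adaptor towards the RAS pathway, was lower at 210 against 436 CPM, a log2 fold change of -1.05.

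**Figure D4:**
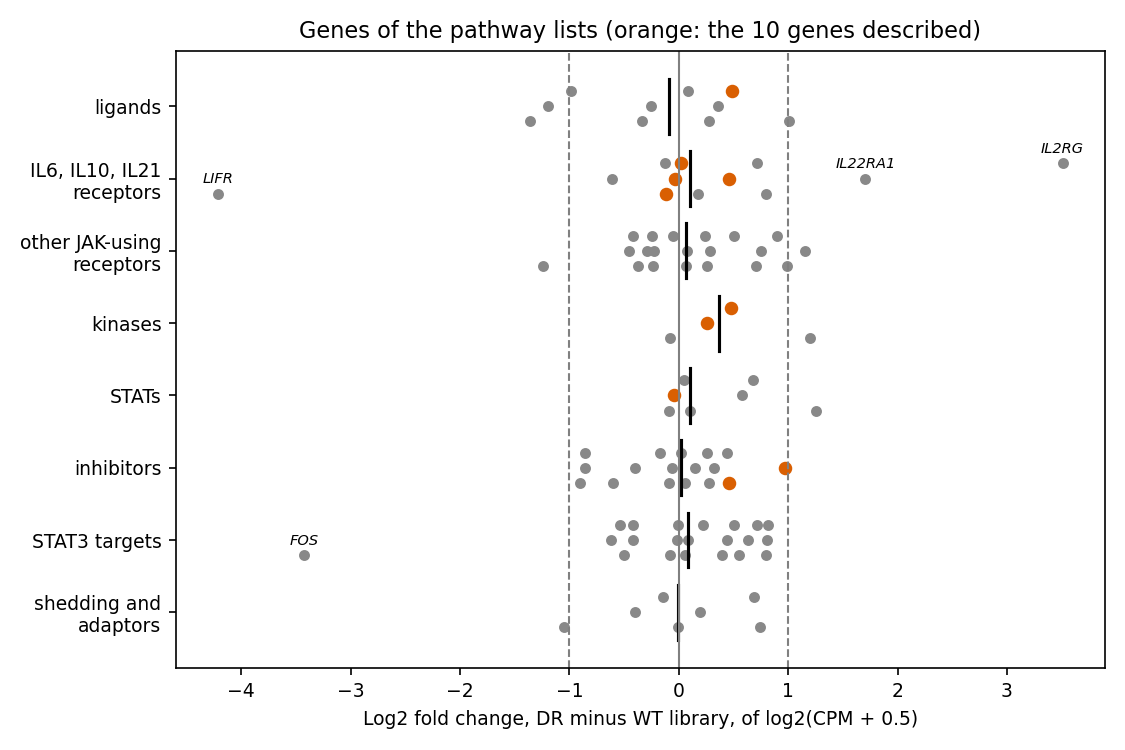
Log2 fold change (DR minus WT, of log2(CPM + 0.5)) of each tested gene of 8 pathway lists, with black bars at the list medians, dashed lines at 2-fold, and the 10 genes in orange. The medians run from -0.08 for ligands to 0.37 for kinases, and the genes far outside the lines are IL2RG at 3.51, IL22RA1 at 1.71, FOS at -3.42 and LIFR at -4.21.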

How the data were processed

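Total RNA was sequenced in 2 libraries, 1 per group, made with Illumina protocols. The authors deposited 1 table of estimated counts per gene with gene lengths (hg19 and Bowtie 0.12.2 are named in the submitters' processing notes, without a role). The counting tool, annotation and strand setting are not given in the sources used here. Their log2 ratio, p, q and up or down columns were not used. Counts, fractional for 9108 genes (6 of the 10 members), were rounded, and 663 genes held none. Columns were assigned by the sample descriptions.

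CPM used edgeR 4.0.16 TMM factors (R 4.3.3), and 2057 genes below 10 reads in the sum of both libraries were left out. Fold changes are differences of log2(CPM + 0.5), called at 1 or more in size. With 1 library per group no test of the conditions was run. Intervals (SciPy 1.17.1) cover counting only. The 10 genes, lists and markers were chosen with earlier results of these data known. Named genes were the 10, all kinases and STATs, and per list and direction up to 3 further called genes at a mean of at least 5 CPM. One gene this rule names is not reported here. Others were chosen after their values were seen. Motifs were counted in RefSeq start windows, with no genome of the files' build used. The calling steps were run on simulated counts with read counting as the only variation and planted changes well past 2-fold. That run does not check calls near the 2-fold line or in genes with few reads. Alternatives were library totals, DESeq2 1.42.0 size factors, pseudocounts, filters, a binomial test of reads and assumed coefficients of variation.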

Additional observations from a re-analysis of the deposited data

How the results depend on the processing

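The conditions have 1 library each, so no replicate could be left out, and depth limits IL6 most among the 10 genes, with 29 and 8 reads. No paired analysis was possible because each group has a single library. IL10RA, IL21R, JAK1, JAK2 and SOCS3 kept their direction and stayed below 2-fold under every scaling, pseudocount and filter tried. IL6R kept its sign too, but its interval of 0.986 to 1.05 held 1, so no direction is given for it. DESeq2 size factors moved 0 of 24 results for the 8 pathway lists, which are the counts higher and lower and the median of each list. With library totals IL6ST was at 0.0042, STAT3 at 0.0012 and SOCS1 at 1.0037, giving 1 of the 10 genes past 2-fold. Of the 16210 genes tested, 1261 were higher and 649 lower in that setting. With a pseudocount of 0.1 CPM SOCS1 was at 1.16 (again 1 gene of the 10). Then 10 of the 97 tested genes of the pathway lists were higher and 7 lower, against 1717 and 919 of all 16210. With 5 CPM SOCS1 was at 0.35. Of the same 97 genes of the pathway lists 1 was higher and 3 were lower, against 418 and 337 of the 16210. With no pseudocount, an alternative added after seeing the data, IL6 was at 1.18 and SOCS1 at 1.22 (2 of the 10 genes higher). In that setting 12 genes of the pathway lists were higher and 7 lower, against 1802 and 1030 over all genes. Genes lacking a read in 1 of the libraries dropped out there, so its total over all genes is below 16210. At an assumed coefficient of variation of 0.4, 301 genes were higher and 145 lower over all genes, against 1202 and 679. Without division by length, 16 of 20 ranks of the 10 genes moved. Library totals shifted the median of all genes most among the scalings, by 0.03.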

Other observations

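Some receptors of other cytokines that use the same kinases differed between the libraries at high levels without passing 2-fold. Over the 20 tested receptors of that list the median log2 fold change was 0.07. CSF2RB, the beta chain shared by the receptors for GM-CSF, interleukin 3 and interleukin 5, which signals through JAK2, stood at 253 CPM in the library labelled DR and 135 CPM in the library labelled WT, a ratio of 1.87 (1.81 to 1.94) and a log2 fold change of 0.90. The interferon receptor chains went both ways, with log2 fold changes of 0.70 for IFNGR2, 0.24 for IFNAR1, 0.07 for IFNGR1, -0.22 for IFNLR1 and -0.42 for IFNAR2. ADAM10, a protease that sheds cell surface receptors, stood at 320 and 198 CPM with 0.69, and ADAM17 at 54.1 and 59.9 CPM with -0.14. GAB1, an adaptor of gp130 signalling, was at 85.1 and 50.7 CPM with 0.74. These genes were named after their values were seen.

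The Gene Ontology terms in the deposited table that hold the most of the 10 genes were likewise looked up afterwards, and are read beside 7.42% higher and 4.19% lower over all genes tested. The 7 genes of the interleukin-6-mediated signaling pathway, 3 of them among the 10, gave 0 past 2-fold. The 16 genes of the regulation of interferon-gamma-mediated signaling pathway, with 4 of the 10, also gave 0 in either direction. Of the 390 tested genes of negative regulation of apoptotic process, which hold IL6, IL6R, IL6ST and SOCS3, 51 (13.1%) were at least 2-fold higher and 19 (4.87%) lower, with a median log2 fold change of 0.01. The share of higher genes was above that of all genes tested and the share of lower genes near it, with no test made. Of 53 genes of positive regulation of osteoblast differentiation, 17% were higher and 7.55% lower, of 51 genes of negative regulation of protein kinase activity 9.8% and 5.88%, and of 24 genes of response to antibiotic 8.33% and 12.5%. The 14 genes of regulation of the type I interferon-mediated signaling pathway gave 0 in either direction. Of the 20 tested genes each of acute-phase response and of the JAK-STAT cascade in growth hormone signaling, 1 was higher, and 0 and 1 were lower. In the start windows of the wider lists, BCL6 and CISH each had a window with 4 matches to the STAT motif, and their log2 fold changes were -0.01 and 0.32.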
